A study of Homo sapiens with 4 samples.

Results

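The expression table of TK6 cells listed 6 microRNA host transcripts among 11415 gene symbols, namely MIR210HG, MIR155HG, MIR17HG, MIR497HG, MIR600HG and MIRLET7DHG. They were taken by symbol, as every gene whose name starts with MIR and ends with HG, and each was represented by the RefSeq record with the highest mean count. MIR210HG was selected on its lower counts in the simulated microgravity libraries described here, so its values are given as a description and nothing is read from its test. The other 5 host transcripts were selected by symbol alone. RefSeq names 87 human genes in this form, and the table, which lists records above 1 CPM (counts scaled to the size of the library) in at least 1 library, held 3 more of them under another symbol.

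RNA was sequenced from TK6, an established human lymphoblastoid cell line, grown at 200000 cells per ml for 48 hours in rotating-wall bioreactors (HARV, a vessel that keeps cells in suspension). In simulated microgravity the vessel turned at 12 rpm (2 libraries), and in the static control it stood still (2 libraries). The labels name no genetic change or drug, and rotation was the labelled difference. Counts summed over all records to 112609031 and 126368530 in simulated microgravity, against 119211458 and 122000359 in static control. Over 1 record per gene the biological coefficient of variation was 6.77%, and the TMM scaling factors lay between 0.994 and 1.01. Of markers fixed for the label, 7 of 8 B cell genes were listed, at 35.5 to 1240 CPM, against 0 of 8 T cell genes, 0 of 5 erythroid genes and 1 of 6 myeloid genes (S100A9, at 16.9 to 19.8 CPM). The study's text gives the line a T cell origin. Whether the duplicates came from separate cultures is not stated, so the p-values rest on the spread between these libraries, which may be technical. The main test shares information on that spread across genes.

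A host transcript is a long RNA, usually with no known protein, whose gene carries a microRNA hairpin in an exon or an intron. The nuclear enzyme DROSHA with its partner DGCR8 cuts the hairpin out, DICER1 trims it to the mature microRNA, and an Argonaute protein uses the seed (bases 2 to 8) to pair with target messages. MIR210HG is a known target of the hypoxia-inducible factor HIF. MIR155HG, also called BIC, is strongly expressed in activated B cells and is a known target of NF-kB and AP-1, and MIR17HG is a MYC target that carries the oncogenic miR-17-92 cluster. The libraries held complementary DNA fragments far longer than a mature microRNA, so the values describe the host transcripts and not the mature microRNAs.

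The mature microRNAs below lie within the 6 host loci, with the seed in capitals (RefSeq, GRCh38.p14). They are shown because they say which microRNA a host could supply where both lie on the same strand. 12 microRNAs were found within the 6 spans on GRCh37, the assembly behind hg19, and 11 lay on the strand of the host. The exception was let-7d, which lay opposite to MIRLET7DHG and is shown for its place only. The arms shown for MIR210HG are
hsa-miR-210-3p: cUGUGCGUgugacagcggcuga
hsa-miR-210-5p: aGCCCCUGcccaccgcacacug
and the leading arm of MIR155HG is
hsa-miR-155-5p: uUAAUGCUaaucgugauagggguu
MIR17HG holds 6 hairpins, whose main arms fall into 4 seeds.
hsa-miR-17-5p: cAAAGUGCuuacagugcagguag
hsa-miR-20a-5p: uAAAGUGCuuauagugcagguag
hsa-miR-18a-5p: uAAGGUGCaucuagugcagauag
hsa-miR-19a-3p: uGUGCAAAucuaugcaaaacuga
hsa-miR-19b-3p: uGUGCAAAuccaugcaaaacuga
hsa-miR-92a-3p: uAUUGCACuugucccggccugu
Both microRNAs of MIR497HG share a seed, and MIR600HG and MIRLET7DHG have a single microRNA each in their span.
hsa-miR-195-5p: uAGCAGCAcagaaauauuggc
hsa-miR-497-5p: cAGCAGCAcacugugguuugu
hsa-miR-600: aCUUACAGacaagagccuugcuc
hsa-let-7d-5p: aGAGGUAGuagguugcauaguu
The seed of miR-210-3p was found in no other arm placed in the hosts examined. Those of miR-17-5p, miR-92a-3p, miR-195-5p and let-7d-5p recur in microRNAs of protein-coding genes or of DLEU2, whose values are given further on.

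MIR210HG (NR_038262, hg19 chromosome 11, minus strand, 565657 to 568457) was lower in simulated microgravity. It had 394 and 213 counts in the simulated microgravity libraries, against 791 and 769 in the static control libraries. Scaled for depth these were 6.77 and 3.32 CPM in simulated microgravity and 13.0 and 12.4 CPM in static control. Both simulated microgravity libraries lay below both control libraries. In bulk RNA, fewer cells that express a transcript and less of it per cell cannot be told apart. The mean was 5.05 ± 2.44 CPM in simulated microgravity and 12.7 ± 0.426 CPM in static control (SD, n = 2 each), 39.8% of the control level and a fitted log2 fold change of -1.34 (SE 0.198). The SE was derived from edgeR's test, which shares information on spread across genes, so it is not the spread of MIR210HG alone. The SD of its log2 CPM in simulated microgravity was 0.727. The miR-210 hairpin (568089 to 568198, minus strand) lay in an intron of all 9 GENCODE transcripts of MIR210HG that span it and in an exon of 0 of them.

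The size of the MIR210HG difference depended on which simulated microgravity library was kept. Its CPM differed 2.04-fold between the simulated microgravity libraries and 1.05-fold between the control libraries, and the median gene differed 1.07-fold and 1.06-fold. A wider gap between the simulated microgravity libraries was seen in 14 of 11415 genes. Without simulated microgravity replicate 1 the log2 fold change was -1.93, and without simulated microgravity replicate 2 it was -0.91. Leaving out static control replicate 1 gave -1.30 and leaving out static control replicate 2 gave -1.37. Since both simulated microgravity libraries lay below both controls, leaving out a library could change the size but not the direction.

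**Figure D1:**
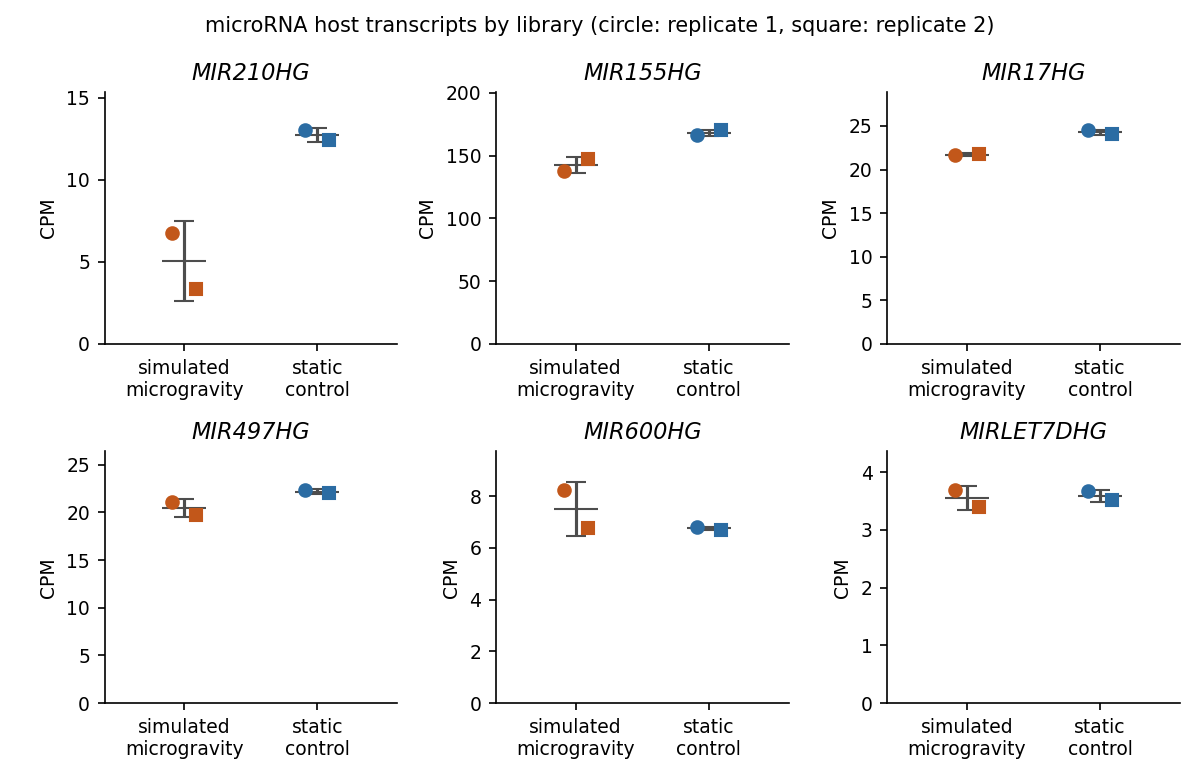
CPM (TMM scaled, axis from 0) of each of the 6 host transcripts in the simulated microgravity (orange) and static control (blue) libraries; horizontal bars are means and error bars SDs of 2 libraries. MIR210HG stood at 6.77 and 3.32 CPM in simulated microgravity, against 13.0 and 12.4 CPM in static control, while the other 5 host transcripts kept a mean within 84.6% to 111% of their control mean.

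Over all genes, edgeR's quasi-likelihood test at a false discovery rate (FDR) under 0.1 called 126 of 11415, or 1.10%, of which 99 fell (0.867%) and 27 rose (0.237%). An unadjusted p under 0.05 was seen in 922 genes, or 8.08%. MIR210HG was among those that fell, and it was chosen for that, so nothing is read from its call. DESeq2 and edgeR's robust quasi-likelihood test did not call it. None of the other 5 host transcripts passed, 1 of them (MIR155HG) had an unadjusted p under 0.05, and DESeq2 and limma-voom also called 0 of these 5. The median log2 fold change of those 5 was -0.12, against 0.00065 over all genes. The CPM of 4 of the 6 host transcripts was lower in both simulated microgravity libraries than in both controls, against 18.1% of all genes, and 35.9% of all genes did not overlap in either direction. With MIR210HG set aside the count was 3 of 5.

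MIR155HG (NR_001458, chromosome 21, plus strand, 26934457 to 26947480) gives rise to miR-155, a regulator of B cell activation. It had 8016 and 9430 counts in simulated microgravity, against 10144 and 10549 in static control. The CPM was 138 and 147 in simulated microgravity, against 167 and 170 in static control, so the groups did not overlap. The log2 fold change was -0.24 (SE 0.071), and edgeR's adjusted p was 0.183. Without simulated microgravity replicate 2 the log2 fold change was -0.29 with an adjusted p of 0.00672, the single omission that brought MIR155HG past the FDR. That fit sets 1 simulated microgravity library against 2 controls and assumes that it varies like them. Its adjusted p ranged from 0.00672 to 1.00 over all alternatives.

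The miR-155 arms lie at 26946295 to 26946355 of chromosome 21, in an exon of both GENCODE transcripts of MIR155HG. The table lists a MIR155 record of its own (NR_030784) there, which had 107 and 173 counts in simulated microgravity, against 170 and 175 in static control. Its log2 fold change was -0.30 with an edgeR adjusted p of 0.809. These reads can come from MIR155HG, since the record lies within an exon of it, and the MIR155 values are no separate measurement of the microRNA. The simulated microgravity libraries stood apart from each other here, with the second at the level of the controls.

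MIR17HG (NR_027350, chromosome 13, plus strand, 92000074 to 92006829) carries the miR-17, miR-18a, miR-19a, miR-20a, miR-19b-1 and miR-92a-1 hairpins. It had 1258 and 1399 counts, or 21.6 and 21.8 CPM, in simulated microgravity, against 1490 and 1492 counts, or 24.5 and 24.1 CPM, in static control. Both simulated microgravity libraries were lower, by a log2 fold change of -0.16 (SE 0.083), and edgeR's adjusted p was 0.694. The cluster, from 92002859 to 92003645, was exonic in 3 of the 11 GENCODE transcripts of MIR17HG that span it and intronic in the others. A second record, NR_027349, had 259 and 240 counts in simulated microgravity, against 272 and 294 in static control, with a log2 fold change of -0.17 and an adjusted p of 0.881 in the edgeR fit over all records. The records share the locus and can share reads.

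MIR497HG (NR_038310, chromosome 17, minus strand, 6919137 to 6922973) carries miR-195 (6920934 to 6921020) and miR-497 (6921230 to 6921341), of the same seed family as miR-15 and miR-16. It had 1229 and 1267 counts in simulated microgravity, against 1361 and 1363 in static control. In CPM these were 21.1 and 19.8 in simulated microgravity, against 22.4 and 22.0 in static control. The groups did not overlap, and the log2 fold change was -0.12 (SE 0.086), with an edgeR adjusted p of 0.854. The MIR497HG span overlaps C17orf49 and RNASEK-C17orf49, both on the opposite strand. Use of strand in the counting is not given in the sources used here, so reads of these genes may not be told apart. C17orf49 had 53.5 and 51.3 CPM in simulated microgravity and 59.3 and 57.2 CPM in static control. RNASEK-C17orf49 had 87.2 and 84.8 CPM in simulated microgravity and 93.9 and 91.0 CPM in static control.

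MIR600HG and MIRLET7DHG, both on chromosome 9 and the minus strand, overlapped between the conditions. MIR600HG (NR_026677, 125871773 to 125877756) had 480 and 433 counts, or 8.25 and 6.75 CPM, in simulated microgravity, against 414 and 416 counts, or 6.80 and 6.71 CPM, in static control. The log2 fold change was 0.15 (SE 0.128, edgeR adjusted p 0.889), and it was 0.0018 without simulated microgravity replicate 1. MIRLET7DHG (NR_046163, 96938852 to 96966848) had 215 and 218 counts in simulated microgravity, against 223 and 218 in static control, or 3.70 and 3.40 CPM against 3.67 and 3.51 CPM. Its log2 fold change was -0.02 (SE 0.152, edgeR adjusted p 0.993) and ranged from -0.076 to 0.042 when single libraries were left out. The let-7d hairpin (96941116 to 96941202) lies on the plus strand, opposite to MIRLET7DHG, within an intron, so the record is not a transcript of the let-7d strand.

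**Figure D2:**
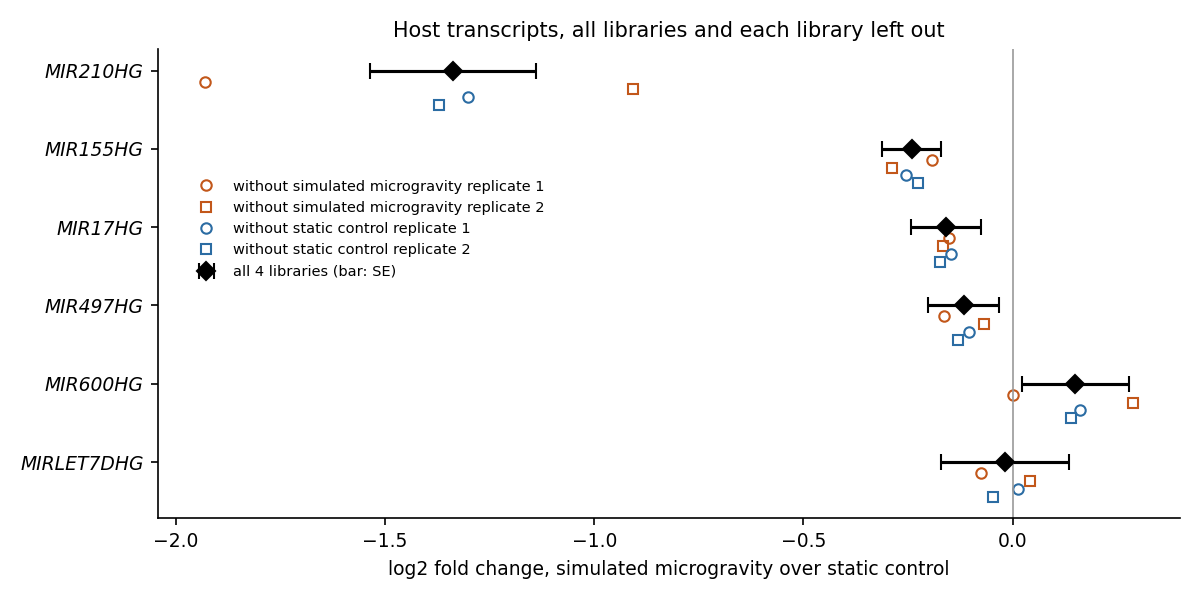
Log2 fold change (simulated microgravity against static control) for each host transcript, with all 4 libraries (black diamonds, bars are SE) and with each library left out (orange for simulated microgravity, blue for static control; circles for replicate 1, squares for replicate 2). MIR210HG ranged from -1.93 to -0.91, MIR155HG from -0.29 to -0.19 and MIR17HG from -0.17 to -0.15, while MIRLET7DHG lay on both sides of 0.

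The 3 host genes listed under another symbol were matched by RefSeq accession or synonym after their values could be seen. LOC284454, now MIR23AHG, had 3.56 and 3.48 CPM in simulated microgravity, against 4.45 and 4.09 CPM in static control. Its libraries did not overlap between the conditions (log2 fold change -0.28, SE 0.148, edgeR adjusted p 0.701). DKFZP434I0714, now MIR4453HG, had 9.85 and 10.6 CPM in simulated microgravity and 10.1 and 10.3 CPM in static control. C20orf197, now MIR646HG, had 6.26 and 6.40 CPM in simulated microgravity and 7.22 and 6.38 CPM in static control. DKFZP434I0714 and C20orf197 overlapped between the conditions, with edgeR adjusted p-values of 0.994 and 0.946.

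The nearest listed gene on either side of each host transcript was also compared, and none passed the FDR, which 1.10% of all genes did. RASSF7, which ends 1632 bp from MIR210HG, had 8.92 and 7.83 CPM in simulated microgravity, against 9.88 and 8.19 CPM in static control (log2 fold change -0.11, edgeR adjusted p 0.938). PHRF1, 8026 bp away on the other side, had 45.8 and 40.7 CPM in simulated microgravity and 47.7 and 41.3 CPM in static control (log2 fold change -0.04, edgeR adjusted p 0.985). Both neighbours of MIR210HG overlapped between the conditions. MRPL39, a mitochondrial ribosomal protein gene 10488 bp from MIR155HG, had a log2 fold change of 0.016 (edgeR adjusted p 0.990). The remaining neighbours had log2 fold changes from -0.20 (LINC00158) to 0.12 (STRBP). For MIR155HG, MIR17HG and MIR497HG they were LINC00158, SPRY2 and TGDS, and RNASEK and SLC16A13. For MIR600HG and MIRLET7DHG they were RABGAP1 and STRBP, and PHF2 and ZNF169. Not all were close, since SPRY2 lay 11084988 bp and TGDS 3219479 bp from MIR17HG, and PHF2 496983 bp from MIRLET7DHG.

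Genes listed as carrying microRNAs but named otherwise, most of them protein-coding with an intronic hairpin, gave a wider view of host genes. Of 45 such genes 34 were measured, 0 rose and 0 fell past the FDR in edgeR, and 1 had an unadjusted p under 0.05, against 1.10% of all genes called and 8.08% with such a p. DESeq2 and limma-voom also called 0, and the median log2 fold change was -0.011, against 0.00065 over all genes. CTDSP1, a small phosphatase gene that hosts miR-26b, had 42.1 and 43.7 CPM in simulated microgravity and 52.2 and 46.9 CPM in static control (log2 fold change -0.21, edgeR adjusted p 0.476). PANK2, a pantothenate kinase gene with miR-103a-2, had 40.6 and 41.9 CPM in simulated microgravity and 37.6 and 37.2 CPM in static control (log2 fold change 0.14, edgeR adjusted p 0.743). PTK2, the focal adhesion kinase gene, had a log2 fold change of -0.14 (edgeR adjusted p 0.746). A microRNA was placed in the span of 30 of the 34 measured genes, PTK2 not among them. In IARS2 and LARP7 every placed microRNA lay on the opposite strand.

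Where a host transcript shares a seed with another host, values can be set side by side by microRNA family. The family of miR-17-5p and miR-20a-5p continues in MCM7, a replicative helicase subunit whose intron carries miR-106b and miR-93, and the seed of miR-92a-3p recurs in its miR-25.
hsa-miR-106b-5p: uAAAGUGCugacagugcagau
hsa-miR-93-5p: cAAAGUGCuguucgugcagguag
hsa-miR-25-3p: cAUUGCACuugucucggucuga
MCM7 had 551 and 606 CPM in simulated microgravity, against 595 and 576 CPM in static control. Its log2 fold change was -0.02 (edgeR adjusted p 0.990). The seed of miR-92a-3p also recurs in miR-367-3p, within LARP7 but on the opposite strand. LARP7 had a log2 fold change of 0.042 (edgeR adjusted p 0.976). The family of miR-195-5p and miR-497-5p continues in DLEU2, a noncoding transcript with miR-15a and miR-16, and in SMC4, a condensin subunit gene with miR-15b and miR-16.
hsa-miR-15a-5p: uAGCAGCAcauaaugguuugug
hsa-miR-16-5p: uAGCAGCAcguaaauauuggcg
hsa-miR-15b-5p: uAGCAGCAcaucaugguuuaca
DLEU2 had 14.6 and 14.9 CPM in simulated microgravity and 16.0 and 17.2 CPM in static control (log2 fold change -0.17, edgeR adjusted p 0.731). SMC4 had 881 and 858 CPM in simulated microgravity and 817 and 823 CPM in static control (log2 fold change 0.085, edgeR adjusted p 0.869). DLEU2 and MIR497HG were lower in both simulated microgravity libraries and SMC4 was higher, none past the FDR. The let-7 seed recurs in HUWE1, a ubiquitin ligase gene with let-7f-2 and miR-98, at a log2 fold change of 0.035 (edgeR adjusted p 0.986), and in WDR82, with let-7g, at -0.036 (edgeR adjusted p 0.983).

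The table also lists 157 records of microRNA hairpins, which in these libraries count longer RNA over the span listed for each. In the edgeR fit over all 22375 records, which called 1.32%, 0 hairpin records rose, 2 fell and 5 had an unadjusted p under 0.05, with a median log2 fold change of -0.0075. The 2 that fell were MIR1233-1 and MIR1233-2, named here after their values were seen. Their records had identical counts, 649 and 507 in simulated microgravity, against 673 and 1147 in static control (log2 fold change -0.64, edgeR adjusted p 0.0721). Both are listed with the same span, 34674270 to 34820572 of chromosome 15, which is far longer than a hairpin. They are therefore a single measurement, and which part of the span the reads came from is not given. The higher mean of the controls came from static control replicate 2, and the CPM overlapped between the conditions. MIR155 was the single hairpin record analysed within any of the 6 host transcripts.

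The proteins that make and use microRNAs were measured through 33 of 40 listed symbols, among which some genes appear under an older name as well. None rose or fell past the FDR in edgeR, 0 had an unadjusted p under 0.05, and DESeq2 and limma-voom called 0, with a median log2 fold change of -0.02. Over all genes edgeR called 1.10%, and 8.08% had such a p. DROSHA had 88.4 and 79.9 CPM in simulated microgravity and 95.7 and 91.8 CPM in static control (log2 fold change -0.16, edgeR adjusted p 0.654). DICER1 had 184 and 173 CPM in simulated microgravity and 189 and 206 CPM in static control (log2 fold change -0.15, edgeR adjusted p 0.713). AGO1, an Argonaute gene, had a log2 fold change of -0.16 (edgeR adjusted p 0.668), and TARBP2, a partner of DICER1, one of 0.15 (edgeR adjusted p 0.746). Without simulated microgravity replicate 1 the log2 fold change of DROSHA was -0.23, and without simulated microgravity replicate 2 it was -0.084.

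Among 16 measured genes of a 19-gene list of published miR-210 targets, 1 fell, 0 rose and 2 had an unadjusted p under 0.05, with a median log2 fold change of -0.016. Over all genes 0.867% fell and 8.08% had such a p, so 2 of 16 is near the share of all genes. The gene that fell was EFNA3, which encodes the ligand ephrin-A3. It had 5.14 and 3.68 CPM in simulated microgravity, against 6.74 and 6.58 CPM in static control, with a log2 fold change of -0.60 (SE 0.152, edgeR adjusted p 0.0947). EFNA3 was, like MIR210HG, lowest in the second simulated microgravity library. Its adjusted p was 0.194 in DESeq2, 0.348 when simulated microgravity replicate 2 was left out and 0.337 when static control replicate 1 was left out. PTPN1, a tyrosine phosphatase gene, had 98.9 and 97.2 CPM in simulated microgravity and 110 and 109 CPM in static control (log2 fold change -0.15, edgeR adjusted p 0.584). ACVR1B, an activin receptor gene, had a log2 fold change of -0.29 (edgeR adjusted p 0.686), and COX10, a heme A synthesis gene of mitochondria, one of 0.12 (edgeR adjusted p 0.822). DIMT1, an rRNA methyltransferase gene, passed the FDR when simulated microgravity replicate 1 was left out (log2 fold change 0.28, adjusted p 0.0159), again with the spread of the controls alone.

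The transcription factors known to act on these hosts were measured at 14 of 15 genes. 0 rose or fell past the FDR in edgeR, DESeq2 or limma-voom, and 0 had an unadjusted p under 0.05. Over all genes edgeR called 1.10% and 8.08% had such a p, so 0 of 14 called is near the share of all genes. The median log2 fold change of the 14 was 0.015. HIF1A, the oxygen-regulated HIF subunit, had a log2 fold change of 0.028 (edgeR adjusted p 0.987) at the RNA level. MYC, which acts on MIR17HG, had 113 and 113 CPM in simulated microgravity and 109 and 105 CPM in static control (log2 fold change 0.079, edgeR adjusted p 0.897). FOSB, of the AP-1 family, had 2.37 and 2.04 CPM in simulated microgravity and 2.30 and 2.85 CPM in static control (log2 fold change -0.23, edgeR adjusted p 0.886). E2F3, a cell cycle factor gene, had a log2 fold change of -0.10 (edgeR adjusted p 0.869).

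Genes known as HIF targets were the list with the lowest median. Of 28 on a list drawn up with results of these libraries known, 22 were measured, 12 fell past the FDR and 0 rose, against 0.867% of all genes that fell, with a median log2 fold change of -0.41. DESeq2 called 8 of the 22 and edgeR's robust quasi-likelihood test 6. PDK1, a kinase gene whose product restrains pyruvate dehydrogenase, had 62.7 and 50.7 CPM in simulated microgravity, against 103 and 105 CPM in static control (log2 fold change -0.88, SE 0.090, edgeR adjusted p 1.2e-04). BNIP3, a mitophagy receptor gene, had 121 and 89.3 CPM in simulated microgravity and 186 and 192 CPM in static control (log2 fold change -0.84, edgeR adjusted p 6.9e-04). INSIG2, which retains the sterol sensor in the endoplasmic reticulum, had a log2 fold change of -1.03 and HILPDA, a lipid droplet gene, one of -0.96 (edgeR adjusted p 0.00336 and 0.00334). In 1 of the 22, PFKFB4, the log2 fold change was below that of MIR210HG. 19 of the 22 had a lower CPM in the second than in the first simulated microgravity library, as MIR210HG did, against 51.7% of all genes.

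**Figure D3:**
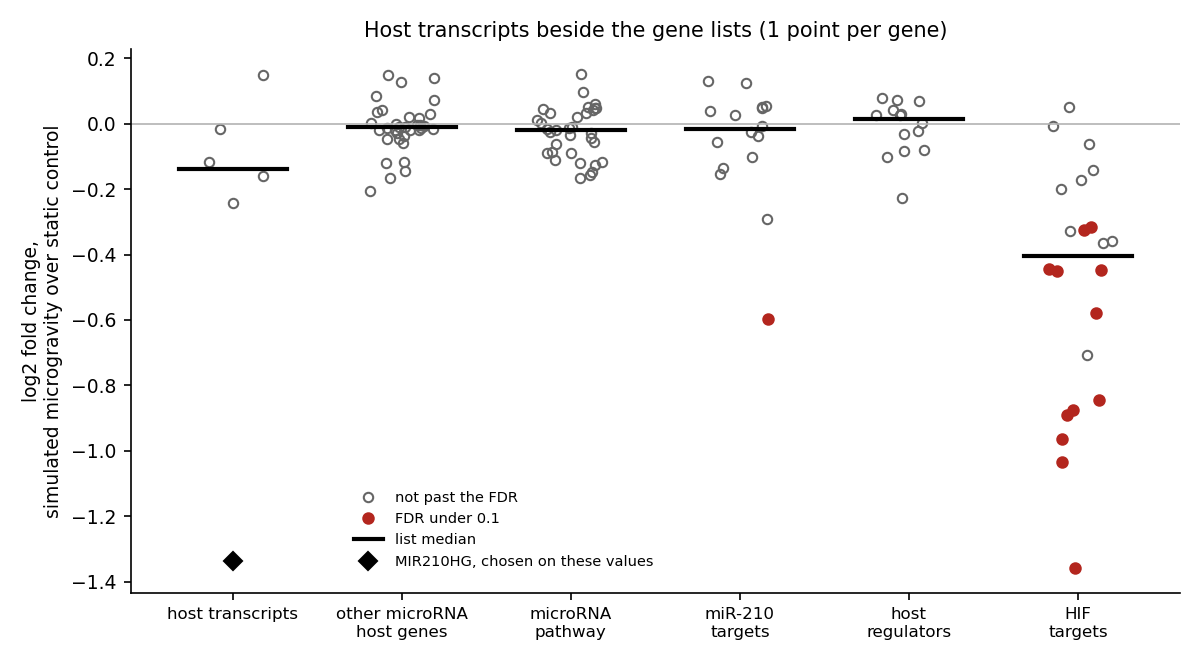
Log2 fold change (simulated microgravity against static control) for each measured gene (points) of the host transcripts, other microRNA host genes, microRNA pathway genes, miR-210 targets, host regulators and HIF targets; filled red points are past an FDR under 0.1, bars are list medians, and MIR210HG is the black diamond. The medians are -0.14, -0.011, -0.02, -0.016, 0.015 and -0.41, the first with MIR210HG included (-0.12 without it). MIR210HG, at -1.34, was chosen for its lower counts in simulated microgravity.

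The genes whose pattern over the 4 libraries was most like that of MIR210HG were sought among 10658 genes with a mean count of at least 200, by the distance between log2 CPM values centred on each gene's mean. The closest was PFKFB4, a kinase and phosphatase gene that sets the level of a glycolytic regulator, at a distance of 0.172. PFKFB4 had 54.5 and 23.4 CPM in simulated microgravity, against 97.9 and 102 CPM in static control. SLC2A5, the fructose transporter gene, followed at 0.383 with 13.3 and 9.05 CPM in simulated microgravity and 25.8 and 26.1 CPM in static control. INSIG2, HILPDA, BNIP3L, GTF2IRD2P1, DMBT1, SPAG4, ANKRD37 and EFEMP2 were next, at 0.477 to 0.666. That all 10 were lowest in the second simulated microgravity library follows from how they were chosen. On the list of HIF targets, of which 22 were measured among all 11415 genes and which was drawn up with results known, were 5 of the 10. The resemblance is over 4 libraries and shares their depth and preparation.

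**Figure D4:**
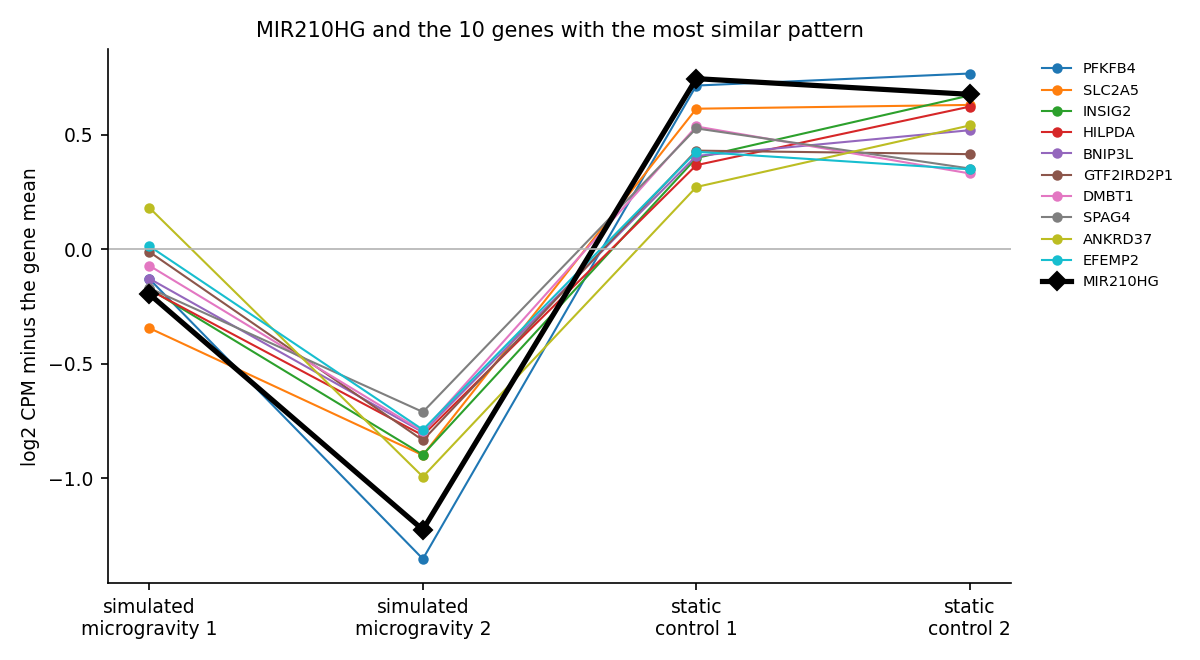
Log2 CPM minus the gene's mean over the 4 libraries for MIR210HG (thick black line) and the 10 genes with the smallest distance to it, with the simulated microgravity libraries on the left and the static control libraries on the right. All 11 lines are lowest in simulated microgravity 2, and PFKFB4, at a distance of 0.172, runs closest to MIR210HG.

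The promoter window of MIR210HG spans 250 bases before to 50 after the RefSeq start (GRCh38.p14, chr11:568408-568707, minus strand). It is printed because MIR210HG is a known HIF target and HIF is known to bind the core letters ACGTG, in capitals here.
MIR210HG promoter: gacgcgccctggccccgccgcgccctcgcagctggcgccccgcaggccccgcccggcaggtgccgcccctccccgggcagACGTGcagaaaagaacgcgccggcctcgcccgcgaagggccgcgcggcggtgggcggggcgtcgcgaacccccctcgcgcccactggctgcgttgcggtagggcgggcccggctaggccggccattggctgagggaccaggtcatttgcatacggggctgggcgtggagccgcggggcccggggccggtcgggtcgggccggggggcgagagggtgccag
ACGTG was searched on both strands and occurred once, starting 170 bases before the start. It was found in 3 of the 5 host transcripts matched to a promoter (MIR210HG, MIR155HG and MIR600HG) in 2 of 6 promoters matched for the 10 genes with the most similar pattern, and in 11 of 17 matched for the measured HIF targets, against 21.4% of 35116 RefSeq promoters of the same length. The longer CACGTG, which contains ACGTG, was not in the MIR210HG window and was in 7.26% of all promoters. GCGTG was also searched, occurred once in the MIR210HG window and was in 36.5% of all promoters. The MIR210HG promoter had a GC content of 80%, against a median of 58.7% over all promoters. A match is a stretch of letters and does not show binding. The HIF list was made of known targets, including genes not past the FDR, so its share of matches is no result of these libraries. Whether HIF acted on MIR210HG here was not tested.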

How the data were processed

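Total RNA of TK6 cells was sequenced in 4 libraries, 2 per condition. Per the methods and processing notes, the authors aligned reads to hg19 with TopHat (TopHat2 2.0.8 in the notes), dropped multiply mapped reads and used Bamutils to count reads for each RefSeq record. The deposited counts are whole numbers and not normalized, and records of a gene share reads. The authors' deposited CPM columns hold the same counts divided by the library's total over all records they counted. The deposited log2 fold change and mean log2 CPM and the deposited p-value and FDR columns hold the authors' own comparison and were not used. Records above 1 CPM in at least 1 library are listed, 22375 records of 11415 symbols.

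Counts of 1 record per symbol (highest mean) were fitted with edgeR 4.0.16 under R 4.3.3 (TMM, filterByExpr, which removed 0 genes, quasi-likelihood test, Benjamini-Hochberg FDR under 0.1 over all genes). All adjusted p-values are edgeR's unless another tool is named. CPM values are TMM scaled, and errors are SDs of 2 libraries. Each SE of a log2 fold change was derived from edgeR's test, which shares information on spread across genes. Counts per library over these records ranged from 57481518 to 64497287, with a lowest count of 33. The test was tried on simulated data with known changes. Alternatives were DESeq2 1.42.0, limma 3.58.1 (voom), other scalings, filters, thresholds and records, a replicate block and leaving out each library. Hairpins were placed by exact match to GRCh37, with GENCODE exons. For miR-155 and miR-93 the mature arms were matched.

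The members, lists and tests were chosen with earlier results of these data known. Named genes are every host transcript, the 4 smallest p-values of each list, the nearest listed gene on either side of each host, and the 10 genes with the pattern most like MIR210HG. A gene that the rule names among the host regulators is not reported here. HIF1A, PFKFB4, DIMT1 and the genes sharing a seed were added after their values were seen. Promoters were matched for 5 of 6 hosts. The record lengths are not used, so levels are not compared between genes.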

Additional observations from a re-analysis of the deposited data

How the results depend on the processing

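The number of genes past the FDR ranged from 70 (without static control replicate 1) to 877 (without simulated microgravity replicate 1) when single libraries were left out, against 126, and was 211 without simulated microgravity replicate 2. The log2 fold change of MIR210HG ranged from -1.93 to -0.91 over the 15 alternatives. Its sign follows from how MIR210HG was chosen and is no check of the result. Host transcripts past the FDR numbered 1, namely MIR210HG, which was chosen on these libraries, so the count describes them and tests nothing. The count was 0 with DESeq2 and 0 with edgeR's robust quasi-likelihood test, and 1 to 2 when single libraries were left out, the second being MIR155HG. With a library left out, its condition has 1 library, which is assumed to vary like the other condition. HIF targets past the FDR numbered 12, but 6 with the robust test. EFNA3 was the single miR-210 target called, and 0 were called with an FDR under 0.05, with library sizes alone, with a mean count of at least 200, with DESeq2 and with a replicate block, and 0 to 2 when single libraries were left out. MicroRNA pathway genes called ranged from 0 to 1 over the left-out libraries. The cause of these changes was not tested. The shared replicate numbers are not stated to mark a batch, and deviations of same-numbered libraries correlated at 0.0797 across genes, over 2 pairs only. A replicate block gave a log2 fold change of -1.39 for MIR210HG, 1 host transcript, 12 HIF targets and 88 genes past the FDR. With 2 libraries per condition, MIR17HG and MIR497HG had log2 fold changes within 2 SE of 0, which does not show that they did not differ.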
